A study of Mus musculus with 14 samples.

Results

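Kinesins are motor proteins that use ATP to move along microtubules or to take them apart. The mouse annotation used here holds 42 protein-coding genes whose symbol is Kif or Kifc followed by a number and at most 1 letter, among 21951 protein-coding genes and 55450 gene identifiers in the deposited counts, and these 42 were taken as the family. By their textbook roles, 15 were listed as mitotic and 27 as non-mitotic. The kinesin encoded by Cenpe does not carry a Kif symbol and was placed among the partners of the mitotic kinesins. RNA was sequenced from 14 libraries of LT-HSCs (long-term hematopoietic stem cells), the bone marrow cells that can rebuild blood for life, each made from 5000 sorted cells of female C57BL/6 mice.

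The 4 groups were as follows. Selp high-derived libraries (3) held donor cells recovered from lethally irradiated recipients 16 weeks after transplantation of 1000 LT-HSCs with high surface P-selectin from old donors. Selp low-derived libraries (3) held the same kind of cells after transplantation of 1000 LT-HSCs with low surface P-selectin. Recipients were 10 to 16 weeks old, and donor cells were gated on CD45.2 and not again on P-selectin. Selp high and Selp low libraries (4 each) held LT-HSCs with high or low P-selectin sorted directly from 4 mice older than 24 months, so that each of these mice gave 1 library of each kind. Every group was sorted as lineage-negative, Sca-1 positive, c-Kit positive, CD48 negative and CD150 positive, and no group carried a genetic alteration or drug treatment. The post-transplant and pre-transplant groups differ in the age of the host, in irradiation and transplantation, and in any batch of sorting or library preparation, and these cannot be told apart.

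In dividing cells, mitotic kinesins push spindle poles apart, attach and align chromosomes, shorten microtubule ends and build the midzone at which the cell splits. Their genes are mostly transcribed in the G2 and M phases, through promoter elements that include the cell cycle genes homology region (CHR) and CCAAT boxes. Transport kinesins instead carry vesicles, mitochondria and other cargo and are used by cells that do not divide, and further members work in cilia or in signalling. LT-HSCs divide rarely, and most of them are in a resting state at any time. In bulk RNA, a larger share of dividing cells and more RNA per cell cannot be told apart.

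Reads assigned to genes numbered 22374794 to 38216775 per library. Levels are given in CPM, the reads of a gene scaled to the size of its library with TMM factors, and levels of different single genes are compared only per kilobase of exon. Sums over lists, and the mitotic share of all kinesin CPM, are not scaled to exon length. The transcript of Selp was at 615 to 764 CPM in Selp high and 477 to 669 CPM in Selp low libraries, and was 1.14 to 1.35 times as high in Selp high as in Selp low cells of the same mouse. After transplantation it was at 284 to 315 CPM in Selp high-derived and 243 to 289 CPM in Selp low-derived libraries. The summed level of 8 sort and stem cell genes, among them Kit, Slamf1 and Procr, was 3000 to 4188 CPM in post-transplant and 4267 to 5194 CPM in pre-transplant libraries. In all, 3 libraries stood apart by neutrophil transcripts, a cell type the lineage gate removes: the 8 neutrophil markers summed to 12049 CPM in Selp low-derived replicate 2, 19331 CPM in Selp high replicate 4 and 14148 CPM in Selp low replicate 4, against 274 to 5779 CPM in the other libraries. Counts of kinesins are therefore also given without these libraries.

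In old mice before transplantation, the kinesins with the highest level per kilobase were transport motors. Kif3a, a subunit of the heterotrimeric kinesin-2 motor, was at 11.2 CPM per kilobase in Selp high and 11.3 in Selp low libraries, and Kif5b, the ubiquitous heavy chain of kinesin-1, was at 9.16 in Selp high and 8.47 in Selp low libraries. Kif16b, which moves early endosomes, came next at 6.94 in Selp high and 7.22 in Selp low libraries. After transplantation the order changed, and mitotic members led. Kif22, a chromosome-binding motor, was at 24.6 CPM per kilobase in Selp high-derived and 21.9 in Selp low-derived libraries, followed by Kif18b at 18.7 in Selp high-derived and 17.6 in Selp low-derived libraries. The 15 mitotic members made up 56.0 to 70.3% of all kinesin CPM in the 6 post-transplant libraries and 21.9 to 42.1% in the 8 pre-transplant libraries. Kif2b and Kif12 had no read in any library, and 37 of the 42 members had enough reads to be tested, 14 mitotic and 23 non-mitotic. Kif26a, Kif26b and Kif28 were the other members left out, with at most 0.371 CPM in a library.

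**Figure D1:**
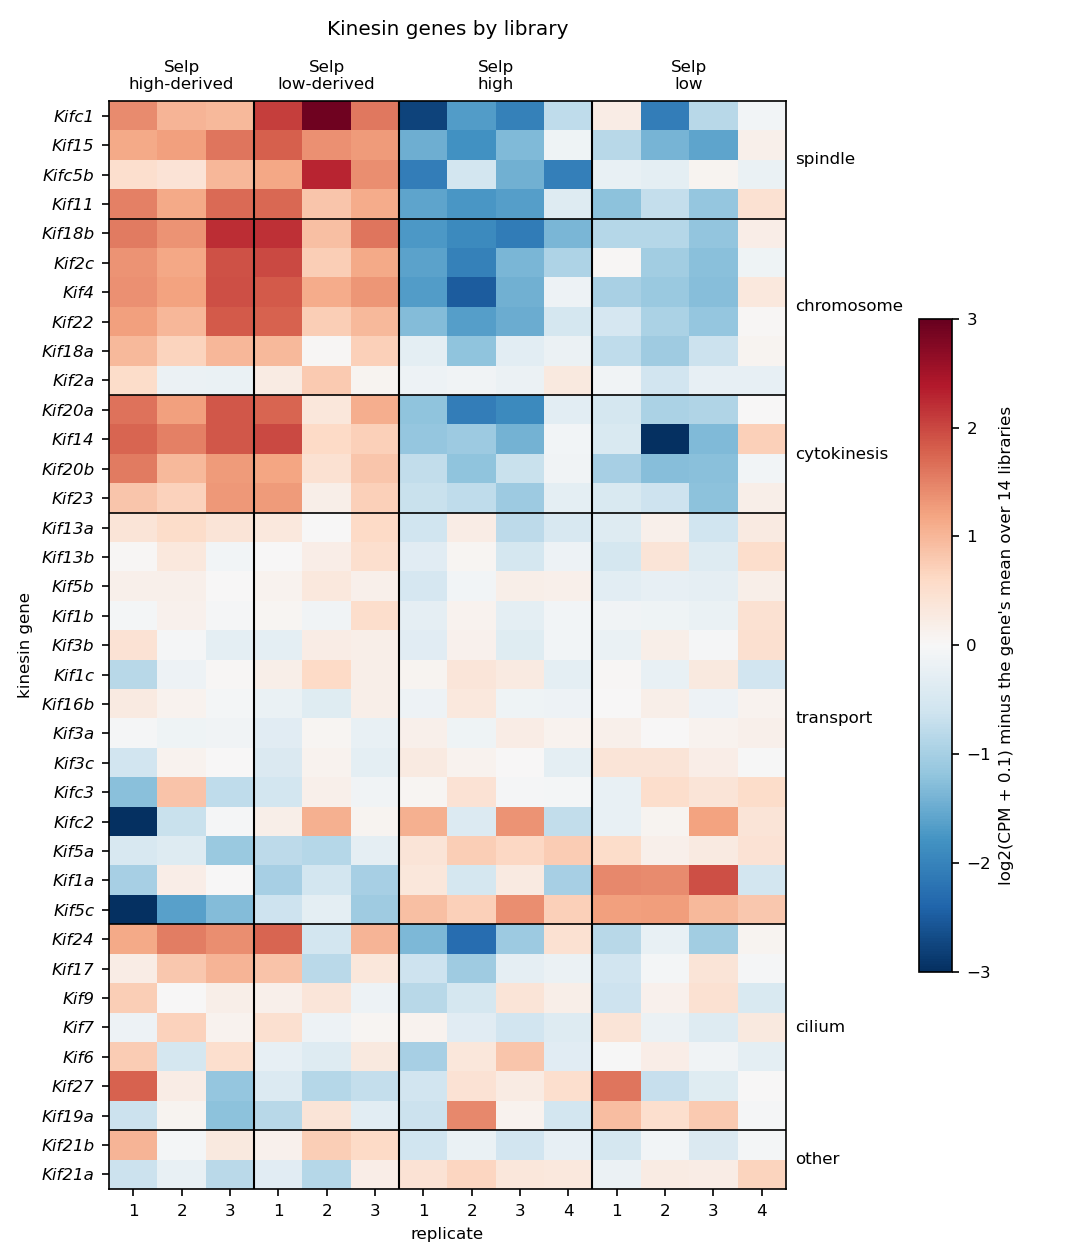
Level of the 37 tested kinesin genes (rows, by role) in 14 libraries (columns, by group and replicate); colour is log2(CPM + 0.1) minus the mean of the gene over all libraries, with values past 3 in either direction shown at the end of the scale. Mitotic rows are mostly red in the 6 post-transplant libraries and mostly blue in the 8 pre-transplant libraries, except Kif2a; of the non-mitotic rows, Kif5a and Kif5c show the opposite pattern.

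The first comparison asked how the kinesins of donor LT-HSCs recovered after transplantation differed from those of LT-HSCs of old mice. Summed over the 15 mitotic members, the level was 668, 546 and 838 CPM in Selp high-derived and 840, 456 and 551 CPM in Selp low-derived libraries, against 131, 106, 120 and 215 CPM in Selp high and 181, 146, 133 and 298 CPM in Selp low libraries. The lowest post-transplant library was above the highest pre-transplant library. The 27 non-mitotic members summed to 356 to 410 CPM in post-transplant and 300 to 410 CPM in pre-transplant libraries, with overlapping ranges. With the mean of both inputs taken at each stage, 13 of the 14 tested mitotic members rose after transplantation and none fell. Of the 23 tested non-mitotic members 4 rose and 3 fell (edgeR quasi-likelihood test, adjusted p under 0.05 over 16878 genes). In all genes tested, 27.4% were called in this comparison, 12.9% higher and 14.6% lower. The libraries of the 2 stages did not overlap in 11 mitotic members, all higher, and in Kif5a and Kif5c, both lower. In the same way 9.75% of all genes did not overlap, 4.28% higher and 5.47% lower. The median log2 change of the tested mitotic members was 2.24, a 4.73-fold difference, that of the non-mitotic members was 0.01, and that of all tested genes was -0.01. Without the 3 libraries highest in neutrophil markers, a setting chosen after seeing the data, 13 mitotic members were again called higher, and the call totals were 18 higher and 7 lower.

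Kif2a, which takes microtubule ends apart in mitosis and in resting cells, was the 1 tested mitotic member that did not pass. It had 34.2, 20.8 and 20.3 CPM in Selp high-derived and 27.9, 40.5 and 24.8 CPM in Selp low-derived libraries, against 21.1, 21.6, 20.5 and 28.8 CPM in Selp high and 21.6, 15.5, 19.8 and 19.6 CPM in Selp low libraries. The stages overlapped, and its log2 change was 0.41 ± 0.16 (SE of the fit; adjusted p = 0.0634). It was called higher with library totals alone as the scaling, with DESeq2, and when Selp high replicate 4 or both libraries of mouse 4 were left out. Exons of Dimt1 on the opposite strand overlap 19.2% of its exon length. The counts were made without regard to strand.

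Among the 4 spindle motors, all rose. Kif11, the kinesin-5 that slides antiparallel microtubules and separates the spindle poles (chr19:37376403-37421859, GRCm38), had 117, 90.6 and 133 CPM in Selp high-derived and 135, 73.1 and 89.2 CPM in Selp low-derived libraries, against 13.5, 12.2, 12.9 and 31.1 CPM in Selp high and 17.4, 24.9, 18.3 and 56.6 CPM in Selp low libraries. No pre-transplant library reached a post-transplant one, and the log2 change was 2.23 ± 0.29 (adjusted p = 9.33e-05). Kif15, a kinesin-12 that shares this work with Kif11, had 26.6, 28.5 and 37.0 CPM in Selp high-derived and 42.1, 31.2 and 29.4 CPM in Selp low-derived libraries, against 3.33 to 10.97 CPM in Selp high and 3.97 to 13.4 CPM in Selp low libraries. Its log2 change was 2.33 ± 0.30 (adjusted p = 8.11e-05), and the stages did not overlap.

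The minus-end motors of kinesin-14 that focus spindle poles showed the same direction on fewer reads. Kifc1 had 5.90, 4.46 and 4.31 CPM in Selp high-derived and 9.34, 16.9 and 6.65 CPM in Selp low-derived libraries, against 0.229, 0.598, 0.447 and 1.23 CPM in Selp high and 2.53, 0.428, 1.16 and 2.01 CPM in Selp low libraries, a log2 change of 2.90 ± 0.40 (adjusted p = 0.000134). Kifc5b, its close copy, had 0.883 to 1.38 CPM in Selp high-derived and 1.57 to 3.50 CPM in Selp low-derived libraries, against 0.0765 to 0.411 CPM in Selp high and 0.508 to 0.695 CPM in Selp low libraries, a log2 change of 2.26 ± 0.37 (adjusted p = 0.000449). The split of reads between these genes is uncertain, because 39.7% of the 50-base stretches of Kifc1 exons and 37.4% of those of Kifc5b recur in each other, in Gm20763 or in Kifc5c-ps, and reads that mapped to several places were not counted. Both genes were highest in Selp low-derived replicate 2, the post-transplant library in which the summed mitotic level was lowest.

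Of the 6 tested motors that act on chromosomes and microtubule ends, 5 rose. Kif18b, a kinesin-8 at the tips of astral microtubules (chr11:102905529-102925124), had 58.2, 50.9 and 91.6 CPM in Selp high-derived and 91.6, 36.9 and 60.2 CPM in Selp low-derived libraries, against 5.93, 5.20, 4.54 and 7.65 CPM in Selp high and 10.96, 10.8, 8.68 and 22.6 CPM in Selp low libraries. The lowest post-transplant value was above the highest pre-transplant value, and the log2 change of 2.88 ± 0.25 (adjusted p = 4.85e-06) had the smallest p of any kinesin in this comparison. Kif2c, a kinesin-13 that corrects faulty attachments at centromeres (chr4:117159639-117182639), had 51.1, 45.1 and 75.5 CPM in Selp high-derived and 78.7, 33.6 and 44.0 CPM in Selp low-derived libraries, against 6.54, 4.86, 7.68 and 10.5 CPM in Selp high and 20.6, 9.63, 8.30 and 18.1 CPM in Selp low libraries. The log2 change was 2.42 ± 0.26 (adjusted p = 1.99e-05).

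Kif22, which pushes chromosome arms towards the spindle equator (chr7:127027729-127042471), had 107, 92.2 and 163 CPM in Selp high-derived and 156, 76.4 and 89.7 CPM in Selp low-derived libraries, against 14.6 to 31.8 CPM in Selp high and 20.3 to 47.2 CPM in Selp low libraries. This gave a log2 change of 2.18 ± 0.24 (adjusted p = 2.56e-05). Kif4, a chromokinesin that also limits the length of midzone microtubules (chrX:100625737-100727214), had 31.1 to 51.5 CPM in Selp high-derived and 28.9 to 47.9 CPM in Selp low-derived libraries, against 2.28 to 11.9 CPM in Selp high and 5.48 to 16.6 CPM in Selp low libraries. On the log2 scale it changed by 2.41 ± 0.34 (adjusted p = 0.00016). In Kif18b, Kif2c, Kif22 and Kif4 the stages were separated without overlap. Exons of Pdzd11 on the opposite strand overlap 15.1% of the exon length of Kif4. Between Selp high-derived and Selp high libraries the log2 change of Kif4 was 2.75, or 2.13 with the sum of the 2 strand-specific counts. That sum cannot tell reads of Kif4 from reads of Pdzd11 where their exons overlap. Kif18a, the kinesin-8 that dampens chromosome movements (chr2:109280738-109341747), changed less: it had 35.1, 28.1 and 35.3 CPM in Selp high-derived and 34.9, 18.2 and 29.1 CPM in Selp low-derived libraries, against 14.5, 7.55, 14.2 and 15.6 CPM in Selp high and 10.4, 8.43, 11.3 and 18.9 CPM in Selp low libraries. Its fitted log2 change was 1.25 ± 0.21 (adjusted p = 0.000615). Here Selp low-derived replicate 2 lay below Selp low replicate 4.

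All 4 motors of cytokinesis rose. Kif23, the kinesin-6 of the centralspindlin complex (chr9:61915905-61946774), had 56.0, 51.2 and 77.8 CPM in Selp high-derived and 76.4, 35.9 and 51.7 CPM in Selp low-derived libraries, against 19.8, 18.6, 14.7 and 25.9 CPM in Selp high and 23.0, 20.6, 13.4 and 35.8 CPM in Selp low libraries. In the fit the log2 change was 1.44 ± 0.22 (adjusted p = 0.000272). Kif20b, a further kinesin-6 of late cytokinesis (chr19:34922361-34975745), had 33.8 to 50.7 CPM in Selp high-derived and 23.9 to 39.6 CPM in Selp low-derived libraries, against 7.40 to 16.1 CPM in Selp high and 7.09 to 16.3 CPM in Selp low libraries. The log2 change was 1.80 ± 0.22 (adjusted p = 5.50e-05). In both genes every post-transplant library was above every pre-transplant library, in Kif23 by a narrow margin.

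Kif20a, which brings Aurora B and Plk1 to the midzone, had 60.9 to 94.9 CPM in Selp high-derived and 32.9 to 88.4 CPM in Selp low-derived libraries, against 6.13 to 21.0 CPM in Selp high and 13.5 to 26.1 CPM in Selp low libraries. This gave a log2 change of 2.26 ± 0.29 (adjusted p = 7.53e-05). Its size depends on the counting: exons of Cdc23 on the opposite strand overlap 29.3% of its exon length, and the sum of the 2 strand-specific counts gave a log2 change of 1.35 (adjusted p = 7.74e-05). The strand columns were near equal, so this sum cannot tell reads of Kif20a from reads of Cdc23 where their exons overlap. Kif14, a kinesin-3 that binds citron kinase at the midbody (chr1:136466343-136531511), was the lowest of the 4 per kilobase. It had 9.21, 7.78 and 9.94 CPM in Selp high-derived and 10.8, 4.08 and 4.42 CPM in Selp low-derived libraries, against 1.15, 1.20, 0.929 and 2.50 CPM in Selp high and 1.92, 0.134, 1.00 and 4.46 CPM in Selp low libraries (log2 change 2.21 ± 0.50, adjusted p = 0.00509), and Selp low replicate 4 overlapped the Selp low-derived libraries.

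**Figure D2:**
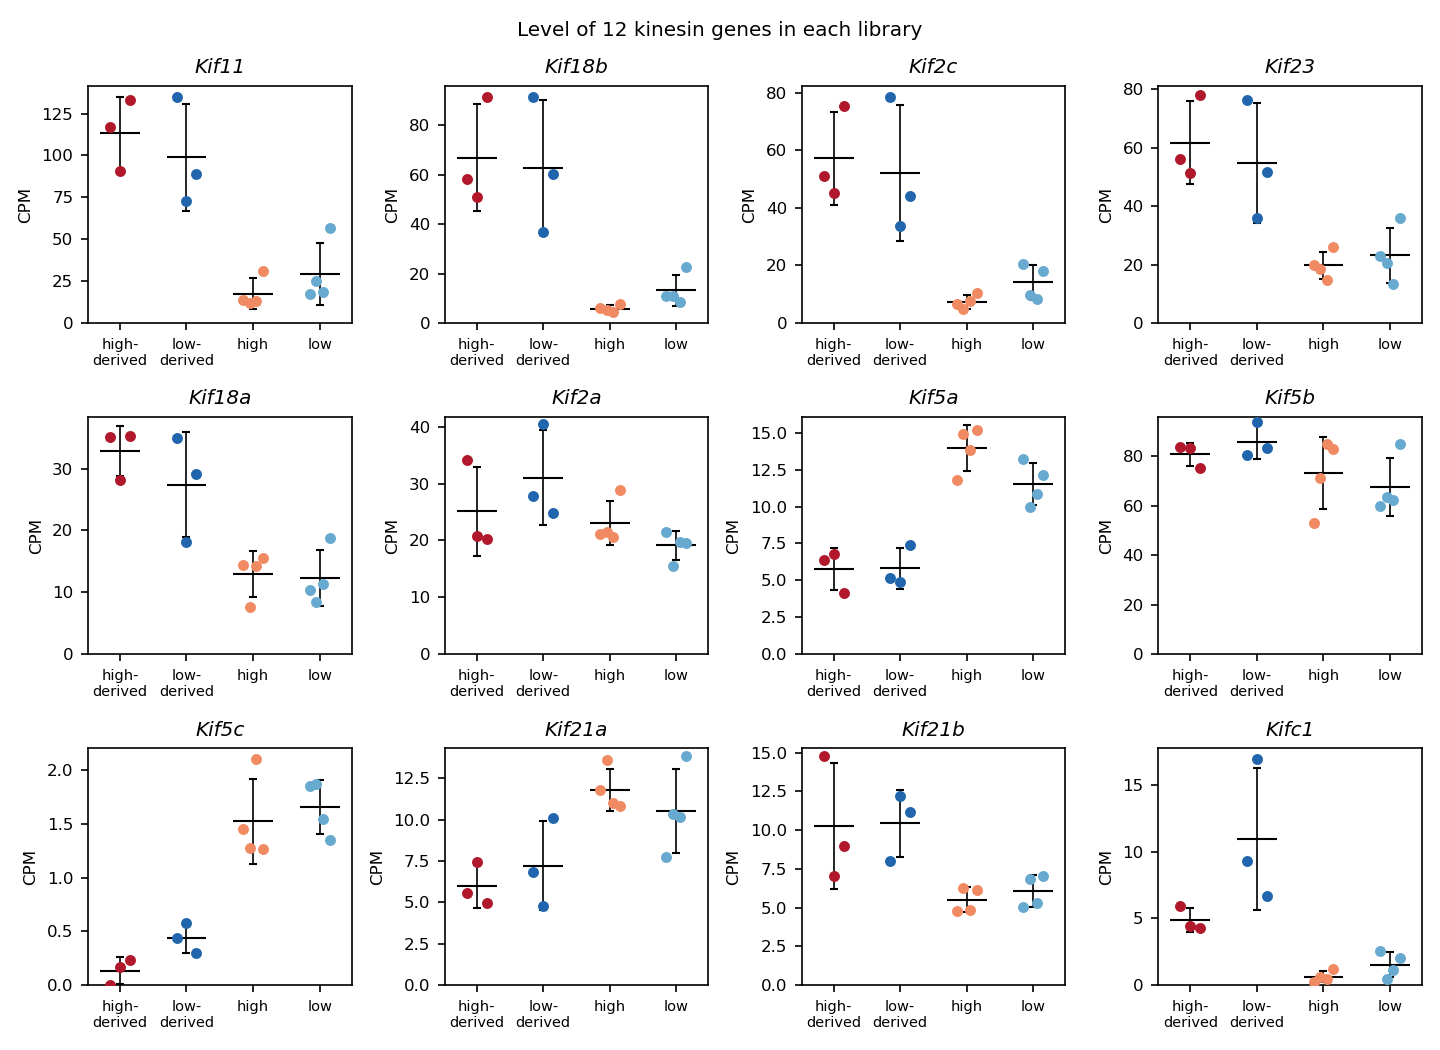
CPM of 12 kinesin genes in each of the 14 libraries, in the groups Selp high-derived, Selp low-derived, Selp high and Selp low; points are libraries, horizontal lines are means and vertical bars are SD (n = 3, 3, 4 and 4), and each vertical axis starts at 0. Kif11, Kif18b, Kif2c and Kif23 are higher in all 6 post-transplant libraries, Kif5a and Kif5c are lower in all 6, and Kif2a and Kif5b overlap between stages.

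Since 13 mitotic members rose together, their promoters were searched for the elements known from G2 and M phase genes. The RefSeq promoter table for GRCm38.p6, with windows of 250 bases before to 50 after a start, matched 33 of the 42 members (14 mitotic genes with 15 windows and 19 non-mitotic genes with 22 windows). CHR letters, which are TTTGAA on either strand with TTCGAA accepted as well, were in 73.3% of the mitotic windows (11 of 15), 18.2% of the non-mitotic windows (4 of 22) and 19.2% of all 32851 windows. The letters CCAAT on either strand were in 60.0% of the mitotic windows, 36.4% of the non-mitotic windows and 37.4% of all windows, and windows with both elements made up 53.3%, 13.6% and 7.52% in the same order of sets. E2F-like letters, which are TTGGCGC on either strand with TTCGCGC accepted as well, were in 13.3% of the mitotic, 4.55% of the non-mitotic and 3.89% of all windows. The E2F-like letters can share their first 4 with a CCAAT box read on the other strand. A match is a description of sequence and not a bound site, and the windows were not tested. The mitotic genes with a window but no CHR letters were Kif18a, Kif2a and Kif2b. Letters and calls did not pair in every member. Kif18a rose with neither CHR nor CCAAT letters. Of the 4 non-mitotic genes with CHR letters, Kif24 rose, Kif27 and Kif1a were not called, and Kif26b had too few reads to be tested.
The stretches below run from 80 bases before to 30 bases after the RefSeq start, 5′ to 3′ on the strand of the gene, and are shown because they hold the CHR and CCAAT letters of genes that rose. Capitals mark these letters, also where the match is on the other strand and is thus printed as its reverse complement.
Kif11, chr19:37376302-37376411, plus strand: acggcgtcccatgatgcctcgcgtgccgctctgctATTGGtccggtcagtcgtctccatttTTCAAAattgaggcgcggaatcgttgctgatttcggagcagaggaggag
Kif22, chr7:127042391-127042500, minus strand: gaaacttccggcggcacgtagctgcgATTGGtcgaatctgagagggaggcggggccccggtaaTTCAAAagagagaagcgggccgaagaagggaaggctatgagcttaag
Kif18b, chr11:102925095-102925204, minus strand: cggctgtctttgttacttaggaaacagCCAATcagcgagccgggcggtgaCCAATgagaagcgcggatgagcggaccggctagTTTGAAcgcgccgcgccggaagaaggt
Kif4, chrX:100625985-100626094, plus strand: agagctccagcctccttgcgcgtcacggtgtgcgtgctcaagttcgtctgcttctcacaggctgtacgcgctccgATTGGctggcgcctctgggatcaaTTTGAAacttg
Kif23, chr9:61946770-61946879, minus strand: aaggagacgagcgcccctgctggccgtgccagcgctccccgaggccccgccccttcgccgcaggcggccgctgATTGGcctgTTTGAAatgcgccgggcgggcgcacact
In Kif11 the CHR letters begin at position -19 and CCAAT at -45, counted from the start at +1, and in Kif22 the CHR letters nearest the start begin at -17 and the CCAAT box at -54. In Kif18b a pair of CCAAT boxes at -53 and -30 precedes CHR letters at +4, and in Kif23 CCAAT at -7 is followed by CHR letters at +3. In Kif4 the CCAAT box begins at -5 and the CHR letters at +20. For contrast, the first line below is Kif24, a non-mitotic kinesin that also rose, with CHR letters at -26 and CCAAT at -74. The second is 1 of the windows of Kif2a, the mitotic kinesin that was not called, with no match in its windows.
Kif24, chr4:41464819-41464928, minus strand: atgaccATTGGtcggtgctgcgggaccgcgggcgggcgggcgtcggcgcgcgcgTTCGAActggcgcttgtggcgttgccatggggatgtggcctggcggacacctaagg
Kif2a, chr13:107022326-107022435, minus strand: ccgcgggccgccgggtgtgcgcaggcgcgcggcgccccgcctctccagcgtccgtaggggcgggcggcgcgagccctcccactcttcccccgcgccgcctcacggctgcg

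Of the 14 transport motors, all of which were tested, 1 rose and 2 fell. That is near the share of all tested genes, of which 12.9% rose and 14.6% fell. Both motors that fell were heavy chains of kinesin-1, the motor that carries mitochondria, vesicles and RNA towards microtubule plus ends. Kif5a, best known from neurons (chr10:127225696-127263348), had 6.36, 6.81 and 4.11 CPM in Selp high-derived and 5.13, 4.88 and 7.42 CPM in Selp low-derived libraries, against 11.8, 14.95, 13.8 and 15.2 CPM in Selp high and 13.2, 9.95, 10.8 and 12.1 CPM in Selp low libraries. Every post-transplant library was below every pre-transplant library, and the log2 change was -1.13 ± 0.16 (adjusted p = 0.00016). Kif5c (chr2:49619298-49774778) had 0, 0.168 and 0.236 CPM in Selp high-derived and 0.439, 0.578 and 0.300 CPM in Selp low-derived libraries, against 1.45, 1.27, 2.10 and 1.27 CPM in Selp high and 1.86, 1.87, 1.54 and 1.35 CPM in Selp low libraries. Its log2 change was -2.68 ± 0.44 (adjusted p = 0.00048), on 0 to 16 reads per post-transplant and 32 to 70 reads per pre-transplant library. The count of 0 in Selp high-derived replicate 1 allows a level of up to 0.111 CPM (3 reads, counting error only).

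Kif5b, the third heavy chain of kinesin-1, had 83.8, 83.4 and 75.3 CPM in Selp high-derived and 80.6, 93.9 and 83.2 CPM in Selp low-derived libraries, against 53.2, 71.4, 84.9 and 83.1 CPM in Selp high and 59.7, 63.6, 62.4 and 84.9 CPM in Selp low libraries. The stages overlapped, with a log2 change of 0.24 ± 0.11 (adjusted p = 0.125), and with the mouse as a block Kif5b was called at 0.26 (adjusted p = 0.028). The block takes differences between mice out of the spread, although the stages are not compared within mice. Its p-values for a comparison of stages can therefore be too small. Per kilobase, Kif5a made up 5.56 to 9.21% of the kinesin-1 heavy chains after and 13.8 to 19.7% before transplantation, Kif5b 90.4 to 93.8% after and 77.7 to 84.7% before, and Kif5c 0 to 0.645% after and 1.39 to 2.72% before. None of these ranges overlapped between stages. Kif13a, a kinesin-3 that carries recycling endosomes, was the transport motor that rose, with 53.0, 60.0 and 53.1 CPM in Selp high-derived and 50.6, 41.2 and 61.4 CPM in Selp low-derived libraries, against 23.6 to 47.9 CPM in Selp high and 26.8 to 49.1 CPM in Selp low libraries. On the log2 scale it changed by 0.61 ± 0.18 (adjusted p = 0.0196). This call was lost without Selp low-derived replicate 3 (adjusted p = 0.0604) or Selp high-derived replicate 2 (adjusted p = 0.0518).

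The other abundant transport motors gave values near 0. Kif3a had 34.4 to 36.6 CPM in Selp high-derived and 29.7 to 39.0 CPM in Selp low-derived libraries, against 34.4 to 44.3 CPM in Selp high and 37.9 to 42.0 CPM in Selp low libraries. Its fitted log2 change was -0.23 ± 0.09 (adjusted p = 0.0665). Kif16b had 60.7 to 76.8 CPM in Selp high-derived and 49.5 to 71.9 CPM in Selp low-derived libraries, against 56.9 to 79.5 CPM in Selp high and 57.0 to 71.8 CPM in Selp low libraries. In the fit the log2 change was -0.01 ± 0.11 (adjusted p = 0.950). Kif1b, Kif3b, Kif3c, Kif13b, Kif1c, Kifc2 and Kifc3 were not called, with log2 changes between -0.75 and 0.26. Kif1a, a neuronal vesicle motor, was at or below 0.656 CPM in every library, on at most 17 reads, and its log2 change of -2.33 ± 0.93 (adjusted p = 0.0780) was not called.

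Of the 7 cilium kinesins, 2 rose, while 12.9% of all tested genes rose. Kif24, a kinesin-13 at the mother centriole that restrains cilium assembly (chr4:41390745-41464887), had 8.28, 10.8 and 9.87 CPM in Selp high-derived and 12.6, 2.49 and 7.51 CPM in Selp low-derived libraries, against 1.38, 0.673, 1.69 and 5.07 CPM in Selp high and 2.02, 3.16, 1.74 and 3.91 CPM in Selp low libraries. Selp low-derived replicate 2 lay among the pre-transplant values, and the log2 change was 1.80 ± 0.42 (adjusted p = 0.00540), or 2.53 without the 3 libraries highest in neutrophil markers. Kif17, a homodimeric kinesin-2 (chr4:138250435-138301967), had 8.21, 12.4 and 14.5 CPM in Selp high-derived and 12.9, 3.97 and 8.97 CPM in Selp low-derived libraries, against 3.33 to 6.26 CPM in Selp high and 4.69 to 9.22 CPM in Selp low libraries. The log2 change was 0.77 ± 0.26 (adjusted p = 0.0361). This call was lost on leaving out any of 8 single libraries, and with limma voom. Kif9, of motile cilia, had 7.19 to 11.9 CPM in Selp high-derived and 6.44 to 9.24 CPM in Selp low-derived libraries, against 3.94 to 9.33 CPM in Selp high and 4.59 to 9.80 CPM in Selp low libraries. Kif7, a regulator of Hedgehog signalling, had 5.69 to 10.2 CPM in Selp high-derived and 5.67 to 8.82 CPM in Selp low-derived libraries, against 4.20 to 6.77 CPM in Selp high and 4.78 to 8.30 CPM in Selp low libraries. Neither was called, with log2 changes of 0.33 ± 0.24 for Kif9 and 0.32 ± 0.20 for Kif7, nor were Kif6, Kif19a and Kif27.

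Kif21a and Kif21b, kinesin-4 motors that slow microtubule growth, moved in opposite directions. Kif21a (chr15:90933276-91049948) had 5.55, 7.44 and 4.95 CPM in Selp high-derived and 6.81, 4.77 and 10.1 CPM in Selp low-derived libraries, against 11.8, 13.6, 11.01 and 10.8 CPM in Selp high and 7.76, 10.3, 10.1 and 13.9 CPM in Selp low libraries. This gave a log2 change of -0.76 ± 0.19 (adjusted p = 0.00839). Kif21b (chr1:136131389-136177998) had 14.8, 7.02 and 8.96 CPM in Selp high-derived and 8.02, 12.2 and 11.2 CPM in Selp low-derived libraries, against 4.78, 6.28, 4.85 and 6.10 CPM in Selp high and 5.03, 6.85, 5.33 and 7.02 CPM in Selp low libraries. On the log2 scale it changed by 0.84 ± 0.18 (adjusted p = 0.00391). Kif21a overlapped between stages through Selp low-derived replicate 3, and Kif21b touched at 7.02 CPM in 1 library of each stage.

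Ratios within paralog pairs compared members of one stem inside each library. For each of 14 pairs the log2 ratio of CPM + 0.1 was taken per library, the 2 libraries of a mouse were averaged, and 6 post-transplant values were set against 4 mice in an exact two-sided permutation test with 210 splits, for which the smallest p is 0.00476. Pairs that differed without overlap at this smallest p (adjusted p = 0.0133 over 14 pairs) numbered 5. Each of them holds a member already called above, and some pairs share a member. The ratios thus describe the same values again and are not separate support. How often other pairs of genes differ in this way was not computed. The log2 ratio of Kif2a to Kif2c was -0.94 ± 0.75 after and 1.10 ± 0.32 before transplantation (SD), and that of Kif18a to Kif18b was -1.07 ± 0.27 after and 0.52 ± 0.39 before. These ratios do not correct for exon length, so they show a difference between stages and not which member of a pair was at the higher level. The log2 ratio of Kif21a to Kif21b was -0.65 ± 0.64 after and 0.93 ± 0.08 before, that of Kif5a to Kif5b was -3.85 ± 0.31 after and -2.45 ± 0.20 before, and that of Kif5b to Kif5c was 7.97 ± 0.95 after and 5.38 ± 0.37 before, where the 0 of Kif5c makes the last value depend on the added 0.1 CPM. Kif20a to Kif20b differed by 0.46 and Kif13a to Kif13b by 0.36, which did not pass after adjustment (adjusted p = 0.0667 in each permutation test).

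By input, the comparison was made with separate libraries. For the Selp high input, Selp high-derived against Selp high libraries, 17 members rose and 3 fell, while 15.2% of all tested genes were called (7.63% higher, 7.62% lower). For the Selp low input, Selp low-derived against Selp low libraries, 12 members rose, all mitotic, and Kif5a and Kif5c fell, while 11.5% of all tested genes were called (5.01% higher, 6.46% lower). The median log2 change of the 14 tested mitotic members was 2.60 for the Selp high input and 1.79 for the Selp low input. Kif18b was 11.5-fold higher in Selp high-derived than in Selp high libraries (log2 change 3.52 ± 0.37, adjusted p = 7.45e-05) and 4.74-fold higher in Selp low-derived than in Selp low libraries (2.24 ± 0.35, adjusted p = 0.00171). Kif14, Kif24, Kif21b, Kif21a, Kif17 and Kif13a passed for the Selp high input and not for the Selp low input, where their log2 changes were 1.78, 1.48, 0.79, -0.55, 0.32 and 0.42 in this order. Each of these 6 calls for the Selp high input was itself lost when some single libraries were left out: any of 9 for Kif13a, 6 for Kif14, 6 for Kif24, 5 for Kif17, 4 for Kif21b and 2 for Kif21a. The log2 change of Kif21b was 0.52 (adjusted p = 0.237) without Selp high-derived replicate 1, against 0.90 with all libraries. A difference between the inputs is tested below. Kif5c was called for the Selp low input at the edge of the threshold (log2 change -1.90 ± 0.58, adjusted p = 0.0492).

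Leaving out Selp low-derived replicate 1, the library with the highest summed mitotic level of its group, left 7 of the members called for the Selp low input, all of them mitotic. With the mouse as a block, the Selp low input also called Kif14 (log2 change 2.29, adjusted p = 0.0148), Kif21b (0.80, adjusted p = 0.0473) and Kif2a (0.71, adjusted p = 0.0474) and no longer called Kif5c (adjusted p = 0.0530). As said for Kif5b, p-values of this block can be too small for a comparison of stages, so the added calls are uncertain.

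**Figure D3:**
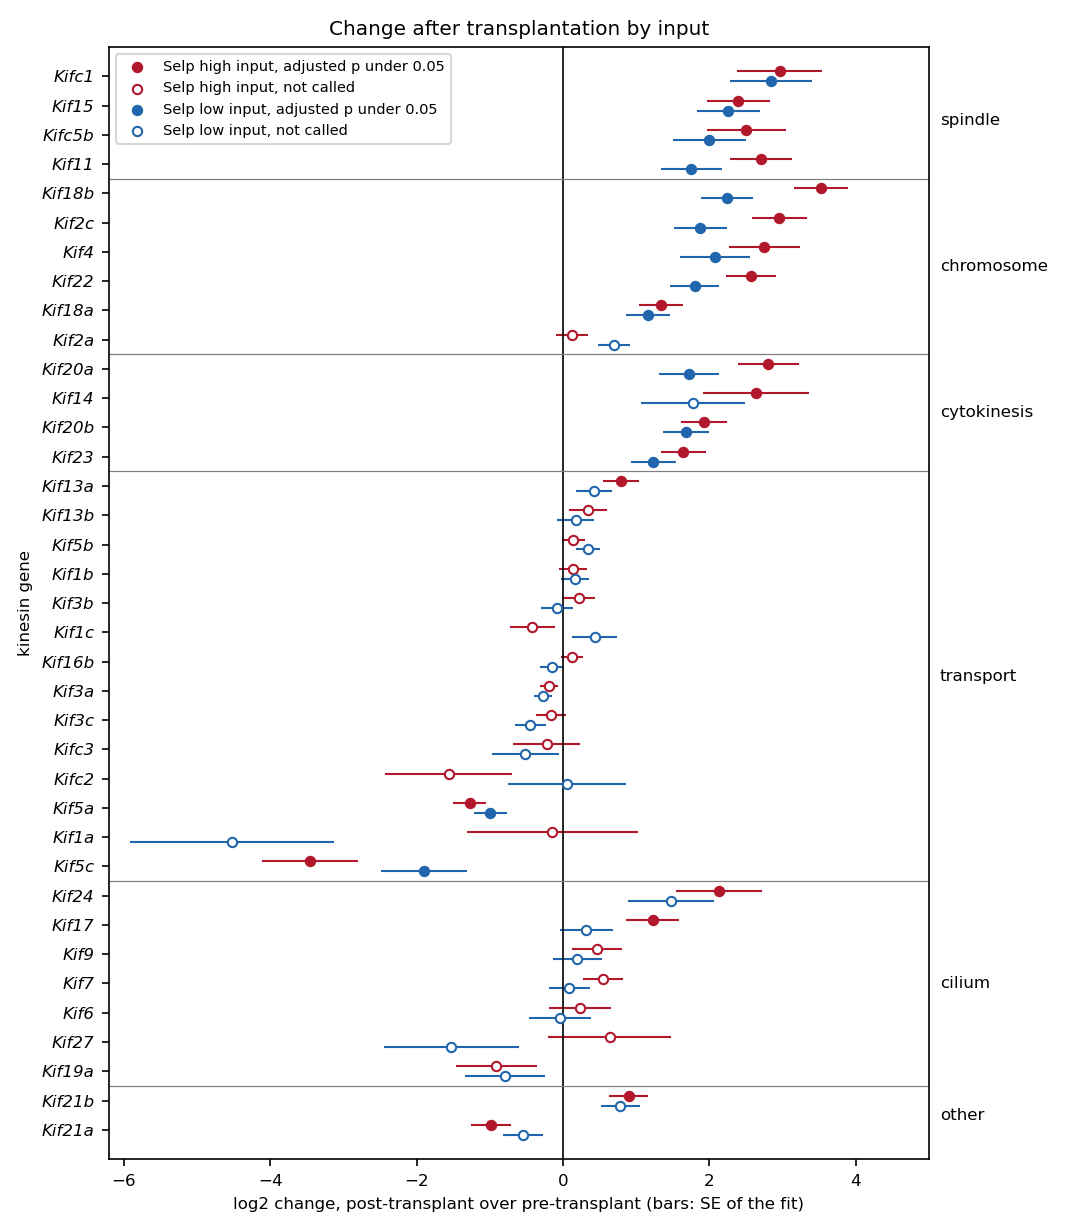
Log2 change of the 37 tested kinesin genes, post-transplant over pre-transplant, for the Selp high input (red) and the Selp low input (blue); bars are the SE of the edgeR fit and filled points have an adjusted p under 0.05. The mitotic genes except Kif2a lie between 1.16 and 3.52, most transport genes lie near 0, Kif5a and Kif5c lie on the left for both inputs, and Kif1a has the widest bars.

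The second comparison asked how LT-HSCs with high P-selectin differed from those with low P-selectin in the same old mice. No kinesin was called (0 of 37), and no gene of the 16878 tested was called by edgeR (0%). DESeq2 called 11 genes and limma voom 0, with 0 kinesins among them. At an unadjusted p under 0.05, edgeR gave 5 kinesins (Kif18b, Kifc5b, Kif2c, Kifc1 and Kif1a), all with lower values in Selp high, and 5.11% of all genes. The median log2 difference was -0.60 over the 14 tested mitotic members, of which 11 had values below 0 while 47.3% of all genes had values above it, -0.15 over the 23 non-mitotic members and -0.02 over all tested genes. The mitotic median was -0.15 without Selp low replicate 4, -1.02 without Selp high replicate 4 and -0.64 without both libraries of that mouse. The sum of the strand-specific counts gave -0.37.

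Kif18b had 5.93, 5.20, 4.54 and 7.65 CPM in Selp high libraries, against 10.96, 10.8, 8.68 and 22.6 CPM in Selp low libraries, without overlap (log2 difference -1.19 ± 0.33, adjusted p = 0.957 in edgeR). Kifc5b had 0.0765, 0.411, 0.172 and 0.0792 CPM in Selp high libraries, against 0.540, 0.508, 0.695 and 0.554 CPM in Selp low libraries, also without overlap (log2 difference -1.60 ± 0.51, adjusted p = 0.957), on 2 to 19 reads per library, and its value was -2.33 without Selp high replicate 2. These were the 2 tested members whose groups did not overlap, and of all genes 3.08% did not overlap, 1.52% higher and 1.56% lower in Selp high. Kif2c had 6.54, 4.86, 7.68 and 10.5 CPM in Selp high libraries, against 20.6, 9.63, 8.30 and 18.1 CPM in Selp low libraries, with overlap (log2 difference -0.94 ± 0.34, adjusted p = 0.957). Kif11 gave 12.2 to 31.1 CPM in Selp high and 17.4 to 56.6 CPM in Selp low libraries (log2 difference -0.75 ± 0.39, adjusted p = 0.957).

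Within each mouse, the summed mitotic level of Selp high cells, given above with that of Selp low cells, was lower by a ratio of 0.722 to 0.897 in 4 of 4 mice, and the sums of the non-mitotic members had ratios of 0.835 to 1.05. Of the 14 tested mitotic members, 7 (Kif11, Kif18b, Kif20a, Kif22, Kif2c, Kif4 and Kifc5b) had lower values in the Selp high cells of all 4 mice, as did 6 of the 23 non-mitotic members and 12.2% of all tested genes. Kif2a and Kif20b went the other way in 3 of 4 mice, and Kif18a in 2. With the mouse as a block, 9 kinesins had an unadjusted p under 0.05 and none was called, and the adjusted p of Kif18b was 0.381. The 3 multipotent progenitor markers (Flt3, Cd34 and Cdk6) summed to 202, 142, 196 and 248 CPM in Selp high and 205, 247, 245 and 304 CPM in Selp low libraries of mice 1 to 4, and were likewise lower on the Selp high side of every mouse. Their part in the kinesin difference was not tested.

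**Figure D4:**
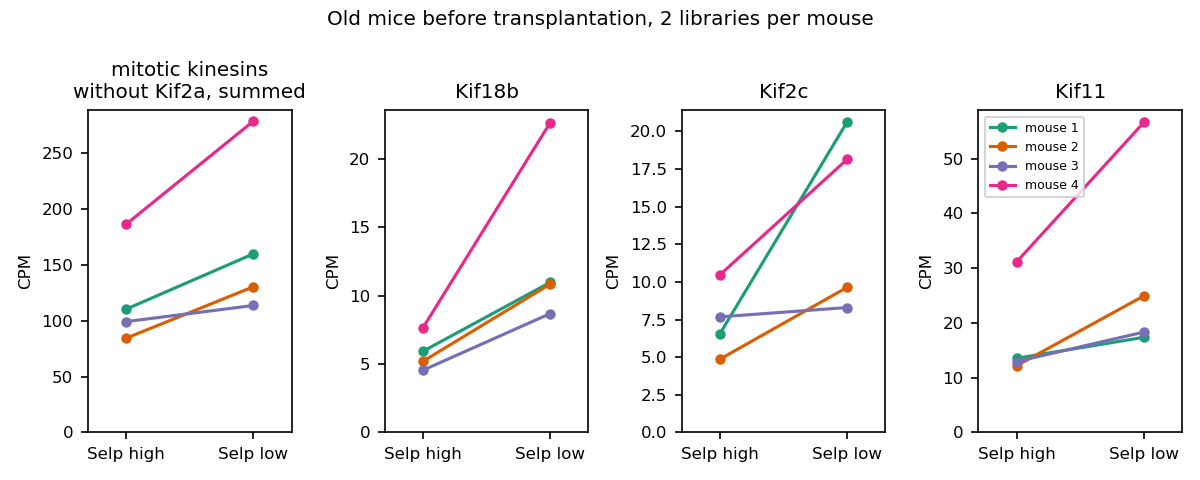
Summed CPM of the mitotic kinesins without Kif2a, and CPM of Kif18b, Kif2c and Kif11, in the Selp high and Selp low library of each of 4 old mice; a line joins the libraries of a mouse and each vertical axis starts at 0. All 16 lines are lower at Selp high. For the single genes this follows from the choice, since all are among the 7 tested mitotic members lower in all 4 mice. Kif2a, left out of the sum, was higher in Selp high in 3 of 4 mice. The ratios of the sums are 0.647 to 0.873 without it and 0.722 to 0.897 with it. Mouse 4 has the highest values in 7 of the 8 columns of points.

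After transplantation, Selp high-derived cells were set against Selp low-derived cells to ask whether the input left a difference. Again 0 of 37 kinesins and 0% of all genes were called by edgeR, while 4.53% of genes had an unadjusted p under 0.05. DESeq2 called 25 genes and limma voom 0, with 0 kinesins among them. The median log2 difference was 0.15 over the tested mitotic members, 10 of 14 with values above 0 against 51.1% of all genes, and 0.01 over all tested genes. It had the other sign, -0.13, when Selp high-derived replicate 3 was left out, and -0.06 when Selp low-derived replicate 2 was left out or the 3 libraries highest in neutrophil markers were. Kif5c, with 0, 0.168 and 0.236 CPM in Selp high-derived and 0.439, 0.578 and 0.300 CPM in Selp low-derived libraries, had the smallest p (log2 difference -1.68 ± 0.67, adjusted p = 0.979 in edgeR). Its value was -2.42 without Selp high-derived replicate 3, -0.86 without Selp low-derived replicate 2 and Selp high-derived replicate 1, and -2.27 with limma voom, with no call in any of these. Kifc5b was next, with 0.960, 0.883 and 1.38 CPM in Selp high-derived and 1.57, 3.50 and 1.85 CPM in Selp low-derived libraries (log2 difference -1.10 ± 0.53, adjusted p = 0.979).

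In all, 5 tested members, Kif5c, Kifc5b, Kifc1, Kif1c and Kifc2, did not overlap between these groups, each lower in Selp high-derived libraries, and 10.3% of all genes did not overlap, 4.79% being higher and 5.55% lower. Kifc1 had 5.90, 4.46 and 4.31 CPM in Selp high-derived and 9.34, 16.9 and 6.65 CPM in Selp low-derived libraries (log2 difference -1.17 ± 0.58, adjusted p = 0.979). Kif1c, a kinesin-3 of dense vesicles, had 1.42, 2.35 and 2.70 CPM in Selp high-derived and 3.002, 4.04 and 3.004 CPM in Selp low-derived libraries (log2 difference -0.63 ± 0.33). Kifc2, a minus-end motor of dendritic transport, had 0, 0.546 and 0.910 CPM in Selp high-derived and 1.06, 2.06 and 0.987 CPM in Selp low-derived libraries (log2 difference -1.49 ± 0.90). That of Kifc2 was -0.49 without Selp low-derived replicate 2 and Selp high-derived replicate 1, -2.37 without Selp high-derived replicate 3 and -2.68 with limma voom. Neither Kif1c nor Kifc2 passed (adjusted p = 0.979 in each).

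The difference of these differences, post-transplant minus pre-transplant, tested whether the change after transplantation depended on the input. No kinesin and 0% of all genes were called, and 2 kinesins and 5.18% of all genes had an unadjusted p under 0.05. Kif18b, with a value of 1.28 ± 0.50, had the smallest p (adjusted p = 0.879 in edgeR), followed by Kif1a with 4.38 ± 1.87 (adjusted p = 0.879), which rests on at most 17 reads per library and was 6.31 without Selp low-derived replicate 2. The median over the 14 tested mitotic members was 0.59, with 13 values above 0 against 50.9% of all genes, and 0.15 without Selp low replicate 4. Whether the larger median for the Selp high input is more than the spread between libraries was thus not shown.

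Genes that work with these motors were counted from lists chosen with earlier results of these data known. The mitotic list also holds general genes of dividing cells, such as Mki67, Cdk1 and Ccnb1. Its count therefore restates the rise of mitotic genes and is not separate support. Of 22 mitotic partners, all 22 rose after transplantation with the mean of both inputs, and 21 rose for each input, Numa1 being the exception. Of all tested genes 12.9% rose with the mean, 7.63% for the Selp high input and 5.01% for the Selp low input. Top2a, which untangles chromosomes, had 316, 248 and 401 CPM in Selp high-derived and 431, 217 and 247 CPM in Selp low-derived libraries, against 27.4 to 69.7 CPM in Selp high and 46.8 to 120 CPM in Selp low libraries. Its fitted log2 change was 2.51 ± 0.27 (adjusted p = 1.99e-05). Prc1, the midzone crosslinker that recruits Kif4, changed by 2.18 ± 0.24, and Racgap1, the partner of Kif23 in centralspindlin, by 1.49 ± 0.17 on the log2 scale (adjusted p = 2.39e-05 for Prc1 and 3.10e-05 for Racgap1). Aurkb, the kinase of the chromosomal passenger complex, rose by 2.36 ± 0.27, and Ckap5, a microtubule polymerase also used outside mitosis, by 0.90 ± 0.10. The CENP-E kinesin gene Cenpe was at 23.0 to 50.8 CPM in Selp high-derived and 23.3 to 46.5 CPM in Selp low-derived libraries, against 3.34 to 9.59 CPM in Selp high and 3.63 to 15.4 CPM in Selp low libraries.

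Kinesin light chains and cargo adaptors were counted likewise: of 16 tested, 0 rose and 4 fell, a share near the 27.4% of all tested genes that were called. Mapk8ip1 and Mapk8ip3, scaffolds that link kinesin-1 to its cargo, fell by 1.24 ± 0.20 and 0.62 ± 0.12 on the log2 scale (adjusted p = 0.000512 for Mapk8ip1 and 0.00177 for Mapk8ip3), the light chain Klc3 fell by 0.97 ± 0.22 (adjusted p = 0.00449), and Arl8a, which couples lysosomes to kinesin, fell by 0.48 ± 0.12 (adjusted p = 0.0101). Of 23 tested genes of dynein and dynactin, the motor of opposite direction, 2 rose and 4 fell, again near that share. Nde1 rose by 0.74 ± 0.09 and its paralog Ndel1 fell by 0.86 ± 0.11 on the log2 scale (adjusted p = 7.50e-05 for Nde1 and 7.23e-05 for Ndel1), both being adaptors of dynein. The heavy chain gene Dync1h1 rose by 0.60 ± 0.17 (adjusted p = 0.0175), and the intermediate and light intermediate chain genes Dync1i1, Dync1li2 and Dync1li1 had log2 changes of -0.80, -0.36 and -0.27 (adjusted p = 0.0360, 0.0154 and 0.0457 in this order).

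The level of mitotic kinesins was set beside markers of multipotent progenitors, which lie just downstream of LT-HSCs and cycle more. The 3 progenitor markers summed to 475, 455 and 593 CPM in Selp high-derived and 568, 366 and 419 CPM in Selp low-derived libraries, against 142 to 248 CPM in Selp high and 205 to 304 CPM in Selp low libraries. The stages did not overlap in this sum, and the libraries of mouse 4 were the highest of the pre-transplant ones in it, as they were in the mitotic kinesin sum. Its members did not all follow. Cd34 was at 211 to 431 CPM after and 102 to 177 CPM before transplantation, without overlap. Cdk6 was at 127 to 188 CPM after and 29.8 to 108 CPM before, also without overlap. Flt3 overlapped, at 14.98 to 30.5 CPM after and 5.05 to 30.1 CPM before, and was highest before transplantation in Selp low replicate 2. Cd48, whose product the sort excludes, was at 5.67 to 15.3 CPM in post-transplant and 1.03 to 21.0 CPM in pre-transplant libraries, with overlap. The part of such cells in the kinesin values was not tested. Neutrophil markers did not follow the same order: they summed to 332 to 12049 CPM in post-transplant and 274 to 19331 CPM in pre-transplant libraries, and the mitotic sums of the stages did not overlap with or without the 3 libraries named above. The 6 erythroid markers summed to 250 to 836 CPM in post-transplant libraries, against 62.8 to 192 CPM in the pre-transplant libraries of mice 1 to 3 and 835 and 985 CPM in those of mouse 4. The 4 megakaryocyte and platelet markers summed to 227 to 329 CPM in post-transplant and 194 to 362 CPM in pre-transplant libraries, but the members of this list went different ways. Pf4 was at 44.3 to 99.2 CPM after and 6.69 to 37.4 CPM before transplantation, and Ppbp at 5.09 to 11.7 CPM after and 0.748 to 2.05 CPM before, both without overlap. Gp9 was lower after transplantation, also without overlap, at 30.1 to 42.9 CPM after and 46.8 to 56.7 CPM before. Itga2b was at 80.3 to 181 CPM after and 131 to 298 CPM before, with overlap. Myeloid granule markers summed to 227 to 661 CPM in post-transplant and 435 to 1334 CPM in pre-transplant libraries, with overlap. The part of these lists in the kinesin values was not tested. T cell markers summed to at most 6.74 CPM in any library.

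**Figure D5:**
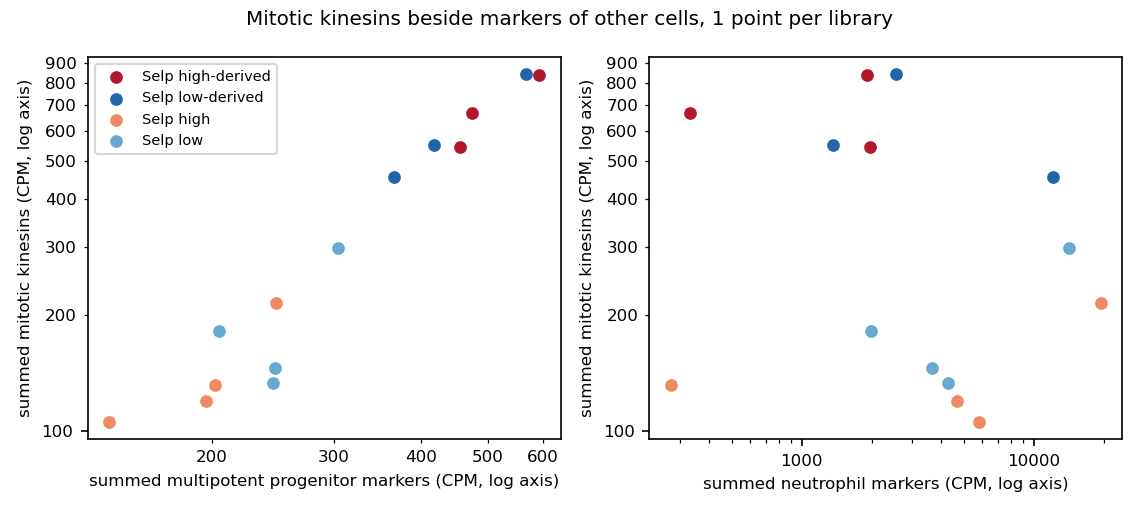
Summed CPM of the mitotic kinesins (vertical) against the summed CPM of 3 multipotent progenitor markers (left) or 8 neutrophil markers (right), all on log axes, 1 point per library. Post-transplant libraries (dark red and blue) lie at 366 to 593 CPM of progenitor markers and 456 to 840 CPM of mitotic kinesins, above all pre-transplant libraries (light red and blue) in both, whereas neutrophil markers spread widely in both stages.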

How the data were processed

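Total RNA of 14 libraries of 5000 sorted cells was amplified by SMART-Seq v4 and prepared with Nextera XT, per the labels' protocols. The deposited values are whole-number counts of reads per gene; the submitters' processing notes name STAR 2.7.0d, GRCm38, FastQC 0.11.9 and Picard 2.23.0. Which annotation release and counting options they applied was not given in the sources used here. Unstranded counts were used, since the strand columns were near equal (ratio 0.989 to 0.999). Rows that name no gene were left out of library sizes: reads that mapped to several places were 9.93 to 13.4%, unmapped reads 3.35 to 5.06%, reads on no feature 3.37 to 5.13% and ambiguous reads 4.20 to 4.79%.

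Genes passing filterByExpr with a minimum count of 10 (16878) were fitted in edgeR 4.0.16 (R 4.3.3) with TMM factors and 4 group means over all 14 libraries, and tested by the quasi-likelihood test, with Benjamini-Hochberg adjustment over all tested genes and a threshold of 0.05. Errors of log2 changes are SE of that fit, which has no term for the mouse. The test was checked on simulated counts that were drawn separately for each library. The check thus does not cover the likeness of libraries from the same mouse. The comparison with the mean of both inputs averages the separate ones and shares their libraries, and each shares libraries with the comparison of Selp high with Selp low. The members and lists were chosen with earlier results of these data known. Values are printed for members called in any comparison, the 3 of each role with the highest level per kilobase, the 2 with the smallest p in each comparison and those without overlap in a Selp comparison; partners are named where called, at most 6 a list by smallest p. Outside this rule, Cenpe and Numa1, the remaining uncalled members and the examples Kif11 and Kif2c between Selp high and Selp low were named after their values were seen. No batch is given in the labels, and the labels do not say if every post-transplant library had a recipient of its own, so that p-values measure the spread between libraries, which may be technical in part.

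Libraries of the same number deviated together before transplantation (correlation 0.29 to 0.53, against -0.40 to 0.049 for other pairs), where the number marks the mouse, and not after it (-0.051 to 0.025). Alternatives were other scalings, other filters, DESeq2, limma voom, blocks, left-out libraries and the sum of the strand columns. Of the progenitor markers, 1 is not reported here, and the sums were taken without it.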

Additional observations from a re-analysis of the deposited data

Results flagged for a closer look

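In 74 groups of 4 libraries, of which chance would set apart about 5%, 5 had 1 library far from the others. Kif11 was at 31.1 CPM in Selp high replicate 4, against 12.2 to 13.5 CPM in the other Selp high libraries. Kif2a was at 28.8 CPM in Selp high replicate 4, against 20.5 to 21.6 CPM in the others. Kif16b was at 79.5 CPM in Selp high replicate 2, against 56.9 to 58.0 CPM, and Kif18a was at 7.55 CPM in the same library, against 14.2 to 15.6 CPM. Kif1b was at 37.1 CPM in Selp low replicate 4, against 23.6 to 25.1 CPM in the other Selp low libraries. Both libraries named replicate 4 are from mouse 4, whose neutrophil markers were the highest.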

How the results depend on the processing

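No kinesin value changed direction with a call under the alternatives run. Of 54 calls of single kinesins in the 3 stage comparisons, 38 were kept in all fits, and 16 were lost in at least 1; over 1486 such fits, 1401 kept the call and 85 lost it. For the Selp low input, 7 kinesins were called without Selp low-derived replicate 1 and 7 to 17 on leaving out each library in turn. The ranges on leaving out 1 library were 14 to 20 for the Selp high input, 18 to 22 for the mean of both inputs, and 0 to 0 for Selp high against Selp low before or after transplantation and for the difference between inputs. With the replicate block before transplantation, 16 kinesins were called for the Selp low input, 20 for the Selp high input and 21 for the mean, and the block gave no call between Selp high and Selp low. In the stage comparisons the p-values of this block can be too small, as said above. Single libraries moved some sizes for the Selp high input: the log2 change of Kif21b was 0.52 without Selp high-derived replicate 1, that of Kif24 was 2.95 and that of Kif4 was 3.38 without Selp high replicate 4, that of Kifc5b was 3.22 without Selp high replicate 2, and that of Kif5c was -4.20 without Selp high-derived replicate 3; the cause was not tested. The sum of the strand columns gave lower values for the Selp high input, 2.13 for Kif4 and 1.58 for Kif20a, and cannot separate reads where exons of other genes overlap. Low read numbers limit the precision of Kif1a, Kif27, Kif5c, Kifc2 and Kifc5b, each with 2 or fewer reads in at least 1 library. A fit of the compared groups alone was not run for the mean of both inputs and the difference between inputs.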
